A study of Mus musculus with 6 samples.

Results

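The metallothioneins Mt1 and Mt2, the zinc sensor Mtf1 and the zinc transporters Slc30a1 and Slc39a10 were followed across 6 libraries of sorted long-term haematopoietic stem cells of mouse bone marrow (LT-HSC), from which all blood lineages derive. These 5 genes are 5 of the 17997 genes in the deposited table and were found there by symbol. They were chosen by the measured values of Flt3ITD against Mx, as Mt2 and its zinc pathway. Mt2 had the largest rise of all tested genes there, on the log2 scale of the main test. The values of that comparison are therefore a description with no test. RNA was measured in 2 biological replicates of each of 3 groups of C57BL/6 mice aged 8 to 11 weeks. NPMc_Flt3ITD cells had the genotype NPMc+/FLt3-ITD, which joins the cytoplasmic mutant form of nucleophosmin with an internal tandem duplication in the receptor tyrosine kinase gene Flt3. Flt3ITD cells had the duplication (Flt3-ITD) without NPMc+. Mx cells (MxCRE) carried the interferon-inducible Cre recombinase transgene and are the stated reference of the series. The labels name the Cre for Mx alone. The labels do not state whether the mutant groups carried it too, or which gates the sort used. Cells with NPMc+ but no Flt3-ITD were not analysed here.

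Metallothioneins are small proteins rich in cysteine that bind zinc, copper and cadmium through their thiol groups. When free zinc rises in a cell, the transcription factor encoded by Mtf1 binds metal response elements (MREs) in the promoters of Mt1, Mt2 and Slc30a1 and induces them, while Slc39a10 is repressed by it. SLC30 proteins move zinc out of the cytosol and SLC39 proteins move it in. Metallothioneins are also induced by glucocorticoids, inflammatory cytokines and oxidative stress, and are abundant in developing red cells.

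In each library 14026 to 16226 of the 17997 listed genes were above 0, so a value above 0 does not test the LT-HSC label. The 14 stem cell genes read beside that label were all above 0 in all 6 libraries. Their summed level was 1669 to 2234 CPM (read counts scaled to library size, normalised by the authors) in NPMc_Flt3ITD, 1503 to 1648 CPM in Flt3ITD and 2730 to 2813 CPM in Mx, and by limma 6 of the 14 fell in Flt3ITD against Mx and 4 fell in NPMc_Flt3ITD against Mx, where 2.43% and 0.656% of all tested genes fell. Leaving out 1 library, 0 to 6 fell in the first comparison (0 without Mx replicate 1, Mx replicate 2 or Flt3ITD replicate 1). In the second 1 to 4 fell (1 when the library left out was from Mx or NPMc_Flt3ITD). With the replicate block 9 and 8 fell, as did 1039 and 357 of all 12657 tested genes. Libraries held between 15618802 and 37038893 reads, recovered from the values, and 3 reads, used as the floor, equalled between 0.0867 and 0.197 CPM. The female-specific RNA Xist was at 259 and 625 CPM in NPMc_Flt3ITD, 37.2 and 547 CPM in Flt3ITD, against 1007 and 1038 CPM in Mx. The Y-linked gene Ddx3y was at 61.1 and 46.9 CPM in NPMc_Flt3ITD, 63.6 and 32.8 CPM in Flt3ITD, against 20.4 and 24.8 CPM in Mx. Both were thus present in every library, and the part of sex in the results below was not tested.

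Both metallothionein genes stood higher in the Flt3ITD libraries than in all others, and neither did so where NPMc+ was also present. The sensor and the transporters among the 5 genes showed no such pattern, as the plot of the 5 genes by library shows. In bulk RNA a change in the share of cells that express a gene and a change in RNA per cell cannot be told apart.

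**Figure D1:**
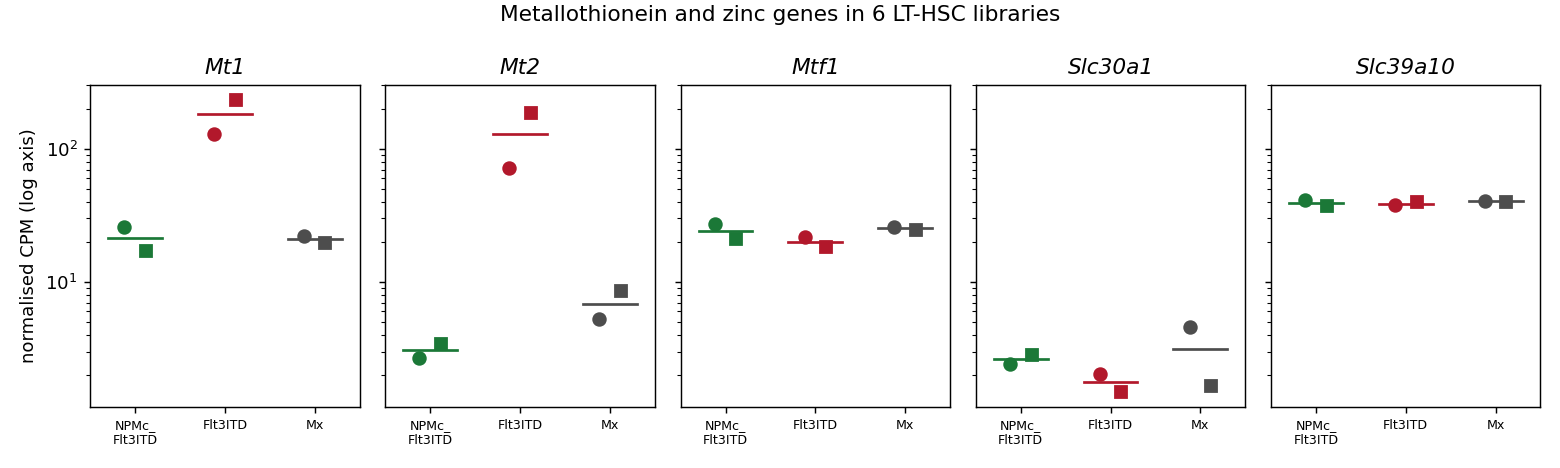
Normalised CPM (log axis) of the 5 genes in each library, by group. Circles are replicate 1, squares replicate 2 and bars the mean of the 2 libraries. Mt1 and Mt2 in Flt3ITD sit at 72.3 to 235 CPM, above all 4 other libraries, while no group of Mtf1, Slc30a1 or Slc39a10 stands apart from both others.

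Mt1 encodes the more widely studied of the 2 main mouse metallothioneins. It was at 26.0 and 17.2 CPM in the NPMc_Flt3ITD libraries (695 and 594 reads), 128 and 235 CPM in the Flt3ITD libraries (1957 and 7417 reads) and 22.2 and 19.5 CPM in the Mx libraries (592 and 414 reads). Both Flt3ITD libraries lay above the other 4, and the NPMc_Flt3ITD libraries lay on either side of the Mx pair. The order of the means was Flt3ITD (182 ± 75.3 CPM), NPMc_Flt3ITD (21.6 ± 6.25 CPM) and Mx (20.9 ± 1.90 CPM) (SD, n = 2), the last 2 differing by less than their spread. Mt1 was higher in Flt3ITD than in Mx by 3.00 on the log2(CPM + 1) scale (SE 0.31), the fourteenth largest rise of 12657 tested genes.

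Mt2 encodes the sister protein, with the same metal-binding role. It was at 2.69 and 3.44 CPM in the NPMc_Flt3ITD libraries (72 and 119 reads), 72.3 and 186 CPM in the Flt3ITD libraries (1101 and 5866 reads) and 5.29 and 8.48 CPM in the Mx libraries (141 and 180 reads). No groups overlapped: Flt3ITD was highest and NPMc_Flt3ITD lowest. The means were 3.07 ± 0.53 CPM in NPMc_Flt3ITD, 129 ± 80.3 CPM in Flt3ITD and 6.88 ± 2.26 CPM in Mx (SD, n = 2). On the log2(CPM + 1) scale its difference of 3.92 (SE 0.45) between Flt3ITD and Mx was the largest rise. It was followed by 3.83 (Cldn13), 3.78 (Cx3cr1) and 3.45 (Atp1b2). This order depends on the scale. In mean CPM Mt2 rose from 6.88 to 129 and Cldn13 from 2.06 to 41.6, the larger fold being that of Cldn13. Within each replicate number the rise was 3.54 and 4.30 for Mt2 and 2.48 and 3.53 for Mt1, larger in replicate 2 for both genes.

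The presence of NPMc+ on the Flt3-ITD background was set against Flt3-ITD without it to ask whether the metallothionein level differed between the mutant groups. Mt1 was lower in NPMc_Flt3ITD than in Flt3ITD by a log2 difference of -2.98 (SE 0.31, 95% interval -3.69 to -2.27), and this passed the limma test over all tested genes (adjusted p = 0.00496). Of 12657 tested genes 1.18% passed in this comparison, 0.277% higher and 0.901% lower in NPMc_Flt3ITD. Mt1 also passed with edgeR on recovered reads (adjusted p = 0.0143) and with replicate number as a block (adjusted p = 0.000166). Without NPMc_Flt3ITD replicate 2 it just missed (limma adjusted p = 0.0509), with a log2 difference of -2.70, and over all genes with no filter it missed as well (adjusted p = 0.0756). The Flt3ITD libraries in this comparison are those in which Mt2 was picked, so it is not independent of that choice. The log2 difference of Mt2 was -4.85 (SE 0.45) and is given without a test for the same reason.

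Against Mx, Mt1 did not pass in NPMc_Flt3ITD (log2 difference 0.02, SE 0.31, 95% interval -0.69 to 0.74, limma adjusted p = 0.986). In this comparison 1.17% of tested genes passed. Mt2 was lower in both NPMc_Flt3ITD libraries than in both Mx libraries, with a log2 difference of -0.93 (SE 0.45), given as a description. Mt2 stood at 0.509 times its Mx level within replicate 1 and 0.405 times within replicate 2. The 2 genes therefore did not keep a constant ratio. The ratio of Mt2 to Mt1 CPM was 0.104 and 0.200 in NPMc_Flt3ITD, 0.563 and 0.791 in Flt3ITD and 0.238 and 0.435 in Mx. The groups did not overlap, but the ratio also varied within each. It is a description, since Mt2 was picked for its rise in Flt3ITD.

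**Figure D2:**
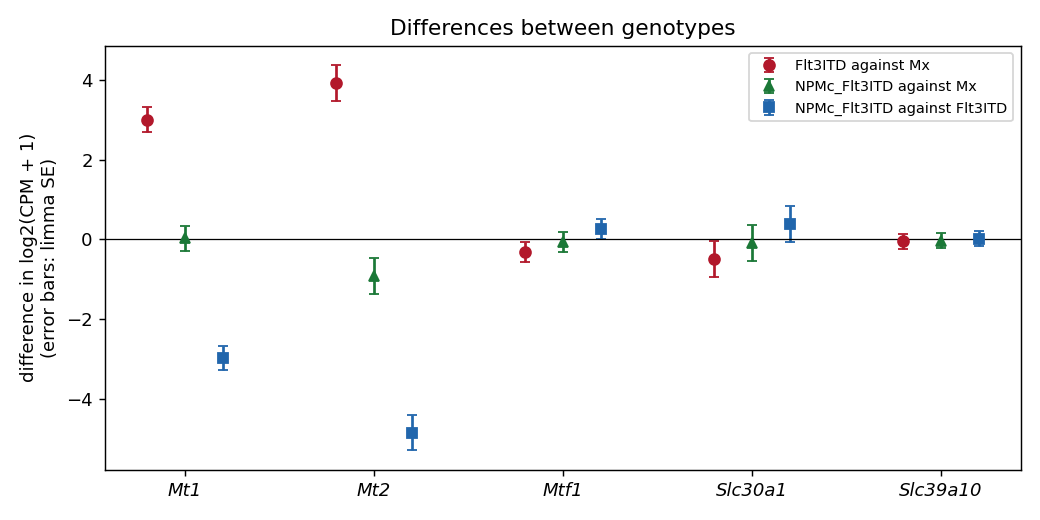
Difference in log2(CPM + 1) between genotypes for each of the 5 genes, with the limma standard error. Values above 0 are higher in the group named first. Mt1 and Mt2 stand at 3.00 and 3.92 in Flt3ITD against Mx and at -2.98 and -4.85 in NPMc_Flt3ITD against Flt3ITD, while the other 3 genes lie between -0.49 and 0.39.

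Mt2 and Mt1 are neighbours on chromosome 8, in a cluster ordered Mt4, Mt3, Mt2 and Mt1 in RefSeq (GRCm38.p6). The longest GENCODE M21 transcript of each shares no stretch of 50 bases with transcripts of the other or of any other gene. Exact reads of that length from these transcripts thus cannot be placed on both. Shorter transcripts of the pair and the opposite strand were not searched in this way. An antisense RNA overlaps Mt2 in that annotation, and no source used here states whether reads were counted by strand. The promoters are shown because the pair was high in the same libraries and Slc30a1, another known target of the sensor, was not. Each sequence is the 250 bases before the RefSeq start, 5′ to 3′ on the gene's strand, with matches to the MRE core in capitals. The core was searched as TGCACNC or TGCGCNC on both strands.
Mt1 promoter (GRCm38.p6, chr8:94178839-94179088, plus strand): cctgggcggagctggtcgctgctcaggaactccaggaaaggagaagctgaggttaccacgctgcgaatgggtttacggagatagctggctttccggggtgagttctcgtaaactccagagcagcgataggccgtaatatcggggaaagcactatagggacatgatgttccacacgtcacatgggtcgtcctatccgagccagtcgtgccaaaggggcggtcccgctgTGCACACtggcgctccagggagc
Mt2 promoter (GRCm38.p6, chr8:94172368-94172617, plus strand): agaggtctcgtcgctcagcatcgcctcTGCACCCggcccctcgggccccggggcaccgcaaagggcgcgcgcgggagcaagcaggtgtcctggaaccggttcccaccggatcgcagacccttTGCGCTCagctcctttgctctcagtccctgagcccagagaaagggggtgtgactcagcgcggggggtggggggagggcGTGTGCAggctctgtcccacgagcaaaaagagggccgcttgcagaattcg
Slc30a1 promoter (GRCm38.p6, chr1:191906531-191906780, plus strand): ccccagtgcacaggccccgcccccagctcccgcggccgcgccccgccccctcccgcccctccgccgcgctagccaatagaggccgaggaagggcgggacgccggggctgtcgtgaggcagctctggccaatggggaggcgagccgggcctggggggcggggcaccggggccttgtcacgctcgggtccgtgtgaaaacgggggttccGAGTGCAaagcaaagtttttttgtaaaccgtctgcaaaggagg

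In these windows Mt1 had 1 match, Mt2 had 3 and Slc30a1 had 1. These counts depend on the listed RefSeq start. Whether these cells used that start was not tested, and elements further downstream were not counted. Over the 300 bases that also take in the 50 bases after the start, Mt1 had 3 matches, Mt2 had 4 and Slc30a1 had 2, and the promoters of Mtf1 and Slc39a10 had none. Of 32851 RefSeq promoters of 300 bases, 25.7% held at least 1 match and 1.97% held 3 or more. The antioxidant response core TGACNNNGC was matched once in Mt2 and once in Slc30a1, and in 12.4% of all promoters. The GATA motif AGATAA, found in 11.2% of promoters, was matched in 1 of the 2 Slc39a10 promoters and in none of the other members. No such match is evidence that a factor was bound.

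In Flt3ITD against Mx and in NPMc_Flt3ITD against Flt3ITD, differences at the neighbouring genes were smaller than those of Mt1 and Mt2. Mt2 was picked as the largest rise in the first comparison, and the second uses the same Flt3ITD libraries. Smaller differences at its neighbours follow from that choice, so they are a description and no result. Mt3, the brain-type metallothionein next to Mt2, was at 0.141 CPM or less, no more than 3 reads in any library, and Mt4 was not analysed here. On the Mt4 side the RNA processing gene Nudt21 was at 83.2 and 124 CPM in NPMc_Flt3ITD, 167 and 152 CPM in Flt3ITD, against 104 and 107 CPM in Mx. It did not pass the limma test in NPMc_Flt3ITD against Flt3ITD (adjusted p = 0.145, or 0.0315 with the block) or in Flt3ITD against Mx (limma adjusted p = 0.133, or 0.0329 with the block), and Ogfod1 and Bbs2 beside it did not pass in any comparison. On the Mt1 side the nuclear pore gene Nup93 was at 40.7 and 42.0 CPM in NPMc_Flt3ITD, 102 and 85.1 CPM in Flt3ITD, against 61.1 and 49.5 CPM in Mx. Nup93 was lower in NPMc_Flt3ITD than in Flt3ITD by a log2 difference of -1.15 (SE 0.19, limma adjusted p = 0.0317), with groups that did not overlap. It missed the threshold in 4 of the 6 fits that left out a library, those without a Flt3ITD or NPMc_Flt3ITD library (limma adjusted p up to 0.221). In Flt3ITD against Mx its log2 difference was 0.75 (limma adjusted p = 0.0646, or 0.0112 with the block). Herpud1, a gene of the endoplasmic reticulum stress response, did not pass in any comparison. These neighbours were taken by position after the values of the pair were known.

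Mtf1, the zinc-sensing activator of both metallothionein genes, was at 27.3 and 20.9 CPM in NPMc_Flt3ITD, 21.7 and 18.3 CPM in Flt3ITD, against 25.8 and 24.7 CPM in Mx. The Flt3ITD libraries were the lower ones against Mx, by a log2 difference of -0.33 (SE 0.25), while the NPMc_Flt3ITD libraries overlapped both other groups. The order of the means was Mx (25.3 ± 0.78 CPM), NPMc_Flt3ITD (24.1 ± 4.56 CPM) and Flt3ITD (20.005 ± 2.348 CPM), and neighbours in this order differed by less than the SD of the NPMc_Flt3ITD pair (SD, n = 2). The log2 difference was -0.08 in NPMc_Flt3ITD against Mx (95% interval -0.65 to 0.50, limma adjusted p = 0.944). It was 0.25 in NPMc_Flt3ITD against Flt3ITD (95% interval -0.33 to 0.83, limma adjusted p = 0.644). The intervals allow a change of up to about 0.83 on the log2 scale in the RNA of the sensor. They do not bear on its protein or its binding to DNA.

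Slc30a1, the zinc exporter of the cell surface and a textbook target of the sensor, was low throughout. It was at 2.43 and 2.80 CPM in NPMc_Flt3ITD (65 and 97 reads), 2.04 and 1.49 CPM in Flt3ITD (31 and 47 reads) and 4.61 and 1.65 CPM in Mx (123 and 35 reads). The Mx libraries lay on either side of the NPMc_Flt3ITD pair and of Flt3ITD replicate 1, with Flt3ITD replicate 2 below them all, so neither mutant group was separated from Mx. The NPMc_Flt3ITD pair lay above the Flt3ITD pair. The log2 difference between Flt3ITD and Mx was -0.49 (SE 0.45), and it was 0.05 when Mx replicate 1 was left out. Slc30a1 did not pass in NPMc_Flt3ITD against Mx (log2 difference -0.09, 95% interval -1.12 to 0.93, limma adjusted p = 0.964). Nor did it pass in NPMc_Flt3ITD against Flt3ITD (0.39, 95% interval -0.63 to 1.42, limma adjusted p = 0.692). These intervals rest on the spread between libraries, with 2 libraries a group. Their width means that a change of about 2-fold in CPM + 1, a larger fold in CPM at these low levels, was not detectable.

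Slc39a10, a zinc importer of the cell surface that the sensor represses, was the steadiest of the 5 genes. It was at 41.1 and 37.5 CPM in NPMc_Flt3ITD, 37.8 and 39.9 CPM in Flt3ITD, against 40.6 and 40.1 CPM in Mx. All 6 libraries lay between 37.5 and 41.1 CPM, the Flt3ITD pair just below the Mx pair, and the means differed by no more than the spread of the NPMc_Flt3ITD pair. The log2 difference was -0.05 (SE 0.19) in Flt3ITD against Mx. It was -0.04 in NPMc_Flt3ITD against Mx (95% interval -0.48 to 0.40, limma adjusted p = 0.965) and 0.02 in NPMc_Flt3ITD against Flt3ITD (95% interval -0.43 to 0.46, adjusted p = 0.977). Scaling to library totals moved the first of these to -0.17, and it moved the median of all tested genes by -0.107 as well (by -0.121 in NPMc_Flt3ITD against Mx).

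The other zinc transporters were read from the whole SLC30 and SLC39 families to see whether the metallothionein pattern extended to zinc transport. Of 22 such genes besides the 2 described, 21 were in the table and 16 passed the filter on low values. None of the 16 passed the limma test in any comparison. EdgeR on recovered reads called none either. At an unadjusted limma p under 0.05 there were 6 in Flt3ITD against Mx, 1 in NPMc_Flt3ITD against Mx and 3 in NPMc_Flt3ITD against Flt3ITD. Of all 12657 tested genes 2991, 1574 and 2384 were under it in these comparisons. DESeq2 called Slc39a4 in NPMc_Flt3ITD against Mx and Slc39a6 and Slc39a8 in NPMc_Flt3ITD against Flt3ITD. Their median log2 difference was -0.09 in Flt3ITD against Mx, -0.03 in NPMc_Flt3ITD against Mx and 0.24 in NPMc_Flt3ITD against Flt3ITD. The medians over all tested genes were 0.01, 0.01 and 0.03 in the same comparisons, in which 4.55%, 1.17% and 1.18% of genes passed. With scaling to library totals 28.9% in place of 46.5% of the called genes were higher in Flt3ITD than in Mx, and 33% in place of 43.9% were higher in NPMc_Flt3ITD than in Mx.

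**Figure D3:**
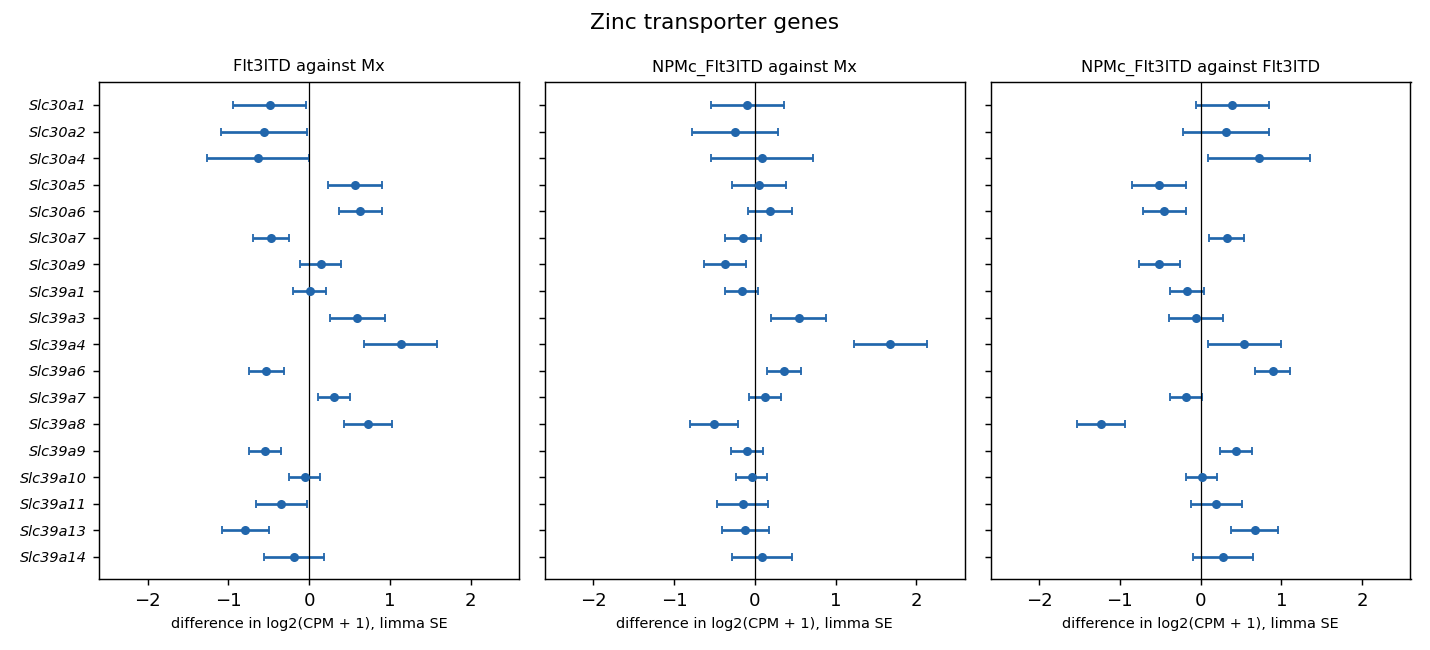
Difference in log2(CPM + 1), with the limma standard error, for the 18 tested zinc transporter genes in the 3 comparisons. Values above 0 are higher in the group named first. Apart from Slc30a1 and Slc39a10 they range from -0.79 to 1.14 in Flt3ITD against Mx, from -0.51 to 1.68 in NPMc_Flt3ITD against Mx and from -1.23 to 0.89 in NPMc_Flt3ITD against Flt3ITD.

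Among the importers, Slc39a8, which carries zinc, manganese and cadmium, was at 8.94 and 8.35 CPM in NPMc_Flt3ITD, 19.5 and 24.1 CPM in Flt3ITD, against 14.4 and 11.2 CPM in Mx. The groups did not overlap and had the same order as those of Mt2. The log2 difference between NPMc_Flt3ITD and Flt3ITD was -1.23 (SE 0.30, limma adjusted p = 0.0801, or 0.0240 with the block). Slc39a6, another surface importer, had the opposite order. It was at 43.4 and 50.4 CPM in NPMc_Flt3ITD, 26.5 and 23.1 CPM in Flt3ITD, against 38.0 and 34.3 CPM in Mx, with a log2 difference of 0.89 between NPMc_Flt3ITD and Flt3ITD (SE 0.21, limma adjusted p = 0.0786, or 0.0187 with the block). Slc39a4, the importer known from the gut, was at 15.8 and 6.76 CPM in NPMc_Flt3ITD, 6.96 and 6.72 CPM in Flt3ITD, against 1.84 and 3.49 CPM in Mx. Both mutant groups lay above Mx for Slc39a4, with a log2 difference of 1.68 in NPMc_Flt3ITD against Mx (SE 0.45, limma adjusted p = 0.149, or 0.0499 with the block).

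The other importers were spread over a wide range of levels and were not called in any comparison by limma. The organelle importer Slc39a7 ranged from 89.5 to 127 CPM over the 6 libraries, Slc39a1 from 66.5 to 95.5, Slc39a11 from 47.5 to 98.99 and Slc39a9 from 40.1 to 68.1 CPM. Slc39a13 ranged from 9.13 to 20.8 CPM, Slc39a3 from 7.92 to 18.5 and Slc39a14 from 2.53 to 4.13 CPM. Slc39a2 and Slc39a5 stayed at 0.112 CPM or less. Of the exporters, those of the secretory pathway were detected in every library. Slc30a7 ranged from 40.8 to 73.1 CPM, Slc30a5 from 28.6 to 69.3 and its partner Slc30a6 from 17.1 to 33.9 CPM. Slc30a9 ranged from 25.4 to 46.9 CPM, Slc30a4 from 2.36 to 11.6 and Slc30a2 from 0 to 1.496 CPM. Slc30a8, known from pancreatic beta cells, Slc30a3 and Slc30a10 stayed at 0.424 CPM or less.

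Other genes reported to answer to the sensor did not stand out in Flt3ITD. The selenoprotein gene Sepw1 was at 152 and 225 CPM in NPMc_Flt3ITD, 169 and 247 CPM in Flt3ITD, against 158 and 217 CPM in Mx, higher in replicate 2 of each group. Csrp1, a LIM domain gene, averaged 54.9 ± 12.5 CPM in NPMc_Flt3ITD, 65.7 ± 14.0 CPM in Flt3ITD and 53.1 ± 20.6 CPM in Mx (SD, n = 2). Ndrg1, a gene induced by several stresses, was at 325 and 209 CPM in NPMc_Flt3ITD, 169 and 149 CPM in Flt3ITD, against 145 and 126 CPM in Mx, so NPMc_Flt3ITD was highest. Its log2 difference was 0.94 against Mx (limma adjusted p = 0.0981, or 0.00331 with the block) and 0.71 against Flt3ITD (adjusted p = 0.138, or 0.0109 with the block). None of the 3 tested genes of this kind passed limma or edgeR in any comparison. At an unadjusted limma p under 0.05, Ndrg1 was the 1 gene in each comparison with NPMc_Flt3ITD and there was 0 in Flt3ITD against Mx. Of all 12657 tested genes 1574 in NPMc_Flt3ITD against Mx, 2384 against Flt3ITD and 2991 in Flt3ITD against Mx were under it. DESeq2 called Ndrg1 in both comparisons with NPMc_Flt3ITD. Pgf, the fourth, was at 1.46 CPM or less and was not tested.

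The wider lists of metal and stress genes showed a handful of changes. Over all 57 tested genes of the pathway lists, the 5 members left out, 4 rose and 4 fell in Flt3ITD against Mx, where 2.12% of all tested genes rose and 2.43% fell. None rose and 1 fell in NPMc_Flt3ITD against Mx, where 0.514% of all tested genes rose and 0.656% fell. None rose and 2 fell in NPMc_Flt3ITD against Flt3ITD, where 0.277% of all tested genes rose and 0.901% fell. No gene of these lists passed in Flt3ITD against Mx without Mx replicate 1 or without Flt3ITD replicate 1, when 0 and 4 genes passed over the whole table. With the replicate block 9 rose and 7 fell in Flt3ITD against Mx, where 1302 and 1039 of all 12657 tested genes did. In NPMc_Flt3ITD against Mx 3 rose and 4 fell, where 332 and 357 of all tested genes did. In NPMc_Flt3ITD against Flt3ITD 5 rose and 9 fell, where 618 and 895 did.

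Of the 13 genes of oxidative and metal stress, 2 rose and 1 fell in Flt3ITD against Mx. The glutathione synthesis gene Gclm rose to 176 and 114 CPM in Flt3ITD, against 30.2 and 62.6 CPM in Mx (log2 difference 1.68, limma adjusted p = 0.0347, or 0.0606 with edgeR on recovered reads). The quinone reductase gene Nqo1 rose to 36.2 and 29.9 CPM in Flt3ITD, against 12.9 and 14.8 CPM in Mx (1.19, limma adjusted p = 0.0404). The growth inhibitor gene Osgin1, also known as an NRF2 target, fell to 2.95 and 7.16 CPM in Flt3ITD, against 46.1 and 29.0 CPM in Mx (-2.73, limma adjusted p = 0.0238). Leaving out 1 library, Gclm passed in 1 of 6 fits, Nqo1 in 0 and Osgin1 in 3, with limma adjusted p up to 0.154, 0.176 and 0.133. Hmox1, the haem oxygenase gene that cadmium and oxidants induce, was at 1.08 and 1.76 CPM in NPMc_Flt3ITD, 0.131 and 1.68 CPM in Flt3ITD, against 2.40 and 4.81 CPM in Mx. It did not pass limma in any comparison, and with the block it was lower in Flt3ITD than in Mx (adjusted p = 0.0382). The heat shock gene Hspa1a was higher there with the block (adjusted p = 0.000983, or 0.356 by limma without it). None of the 13 passed limma in the comparisons with NPMc_Flt3ITD, where 2 had an unadjusted limma p under 0.05 in each. Of all 12657 tested genes 1574 had such a p against Mx and 2384 against Flt3ITD. EdgeR called 0 of the 13 in these comparisons, and DESeq2 called Osgin1 as lower in NPMc_Flt3ITD than in Mx. With the block Osgin1 was lower in NPMc_Flt3ITD than in Mx (adjusted p = 0.0145), and Gclm, Hspa1a and Nfe2l2 were lower in NPMc_Flt3ITD than in Flt3ITD (adjusted p = 0.0422, 0.00775 and 0.0345).

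Of 8 glucocorticoid-responsive genes 2 fell and none rose in Flt3ITD against Mx by limma, where 2.43% of all tested genes fell. With the replicate block 4 fell, Ddit4 and Tsc22d3 being the others, where 1039 of all 12657 tested genes fell. None of the 8 passed limma or edgeR in the comparisons with NPMc_Flt3ITD. There 4 against Mx and 3 against Flt3ITD had an unadjusted limma p under 0.05, as did 1574 and 2384 of all 12657 tested genes. With the block Per1 and Sgk1 were lower in NPMc_Flt3ITD than in Mx, and Ddit4 and Per1 were higher in NPMc_Flt3ITD than in Flt3ITD. DESeq2 called Sgk1 in the first of these and Ddit4 in the second. Sgk1, a kinase gene, fell to 11.2 and 17.2 CPM in Flt3ITD, against 44.0 and 49.3 CPM in Mx (log2 difference -1.68, limma adjusted p = 0.0238). The clock gene Per1 fell to 74.1 and 45.9 CPM in Flt3ITD, against 225 and 149 CPM in Mx (-1.63, limma adjusted p = 0.0341, or 0.0518 with edgeR on recovered reads). With a library left out, Sgk1 passed in 3 of 6 fits and Per1 in 2, with limma adjusted p up to 0.123 and 0.165. The receptor gene Nr3c1 was at 54.8 and 64.3 CPM in NPMc_Flt3ITD, 68.3 and 67.7 CPM in Flt3ITD, against 71.3 and 68.8 CPM in Mx. The median log2 difference of the list was -0.60 in Flt3ITD against Mx and 0.52 in NPMc_Flt3ITD against Flt3ITD. The part of glucocorticoids in the metallothionein values was not tested.

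Of 9 copper genes 1 fell and 3 rose in Flt3ITD against Mx with the replicate block, where 1039 and 1302 of all 12657 tested genes did. By limma without the block 1 fell and none rose, where 2.43% and 2.12% of all tested genes did. The gene that fell was the copper-transporting ATPase gene Atp7a, at 15.5 and 10.7 CPM in Flt3ITD, against 40.5 and 28.3 CPM in Mx (log2 difference -1.32, limma adjusted p = 0.0436, or 0.0544 with edgeR on recovered reads). It passed in 0 of the 6 fits that left out a library (limma adjusted p 0.0705 to 0.217). With the block and with DESeq2 the copper ATPase gene Atp7b, the copper chaperone gene Cox17 and the superoxide dismutase gene Sod1 also passed, all higher in Flt3ITD (adjusted p = 0.00885, 0.0107 and 0.00348 with the block). No copper gene passed limma, edgeR or DESeq2 in the comparisons with NPMc_Flt3ITD, while the block called Atox1 as higher than in Mx, Atp7a as higher than in Flt3ITD, and Atp7b and Slc31a1 as lower than in Flt3ITD. In these comparisons 2 against Mx and 5 against Flt3ITD had an unadjusted limma p under 0.05, as did 1574 and 2384 of all 12657 tested genes.

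Of 9 tested iron genes 2 rose in Flt3ITD against Mx and both of these fell in NPMc_Flt3ITD against Flt3ITD. Slc40a1, the iron exporter, was at 1.38 and 1.53 CPM in NPMc_Flt3ITD, 34.0 and 33.7 CPM in Flt3ITD, against 7.87 and 6.64 CPM in Mx. It passed the limma test in all 3 comparisons, with log2 differences of 2.08 in Flt3ITD against Mx (adjusted p = 0.0163), -1.75 in NPMc_Flt3ITD against Mx (adjusted p = 0.0415) and -3.83 in NPMc_Flt3ITD against Flt3ITD (adjusted p = 0.00191). Its group order was that of Mt2. With a library left out, the last of these passed in 6 of 6 fits, the first in 2 (limma adjusted p up to 0.0958) and the second in 0 (0.0614 to 0.255). Tfrc, the transferrin receptor that takes up iron, was at 65.9 and 89.4 CPM in NPMc_Flt3ITD, 185 and 180 CPM in Flt3ITD, against 62.1 and 54.9 CPM in Mx. Tfrc rose in Flt3ITD against Mx (log2 difference 1.63, limma adjusted p = 0.00792) and was lower in NPMc_Flt3ITD than in Flt3ITD (-1.24, limma adjusted p = 0.0241). With a library left out, Tfrc passed in 3 of 6 fits against Mx (limma adjusted p up to 0.0595) and in 2 of 6 between the mutant groups (up to 0.178). Tfrc is also on the list of erythroid markers. The other 7 tested iron genes did not pass limma or edgeR in any comparison. With the replicate block and with DESeq2 the iron importer gene Slc11a2 was higher in Flt3ITD than in Mx (log2 difference 1.21, adjusted p = 0.00367 with the block) and lower in NPMc_Flt3ITD than in Flt3ITD (-1.38, adjusted p = 0.00246 with the block).

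Many, but not all, listed markers of red cell precursors moved with the metallothionein pair. The list was chosen with earlier results of these data known. It holds Cldn13, whose rise in Flt3ITD against Mx came next after that of Mt2 on the log2(CPM + 1) scale. The counts below are therefore a description and no independent support. Of 18 tested erythroid genes 10 rose and none fell in Flt3ITD against Mx, where 2.12% of all tested genes rose. None rose and 3 fell in NPMc_Flt3ITD against Mx, where 0.656% of all tested genes fell. In NPMc_Flt3ITD against Flt3ITD none rose and 10 fell, where 0.901% of all tested genes fell. With a library left out, 0 to 14 rose in Flt3ITD against Mx (0 without Mx replicate 1 or Flt3ITD replicate 1), 0 to 2 fell in NPMc_Flt3ITD against Mx and 5 to 10 fell in NPMc_Flt3ITD against Flt3ITD. With the replicate block 15 rose in Flt3ITD against Mx, where 1302 of all 12657 tested genes rose. In NPMc_Flt3ITD against Mx 1 rose and 5 fell, where 332 and 357 of all tested genes did. In NPMc_Flt3ITD against Flt3ITD 1 rose and 14 fell, where 618 and 895 did. The summed level of the 20 listed genes was 564 to 861 CPM in NPMc_Flt3ITD, 2889 to 3032 CPM in Flt3ITD and 581 to 704 CPM in Mx. Car1 alone gave 1418 and 1446 CPM of the Flt3ITD sums. Nfe2 and Icam4 had other patterns. Nfe2 was at 388 and 318 CPM in NPMc_Flt3ITD, 228 and 227 CPM in Flt3ITD, against 219 and 213 CPM in Mx. Icam4 was at 30.5 and 13.6 CPM in NPMc_Flt3ITD, 30.0 and 28.0 CPM in Flt3ITD, against 11.8 and 9.42 CPM in Mx. The late erythroid gene Slc4a1 was listed at 0 in both NPMc_Flt3ITD libraries, 1 Flt3ITD library and 1 Mx library, and Trim10 was listed at 0 in both NPMc_Flt3ITD libraries and 1 Mx library. Whether the metallothionein RNA came from the same cells as the erythroid RNA was not tested.

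Markers of other cells had other patterns over the libraries. The 10 neutrophil genes summed to 1067 to 1234 CPM in NPMc_Flt3ITD, 363 and 1826 CPM in the Flt3ITD libraries and 310 to 396 CPM in Mx. The high Flt3ITD library was replicate 2, which was also the higher one for Mt1 and Mt2. Flt3ITD replicate 1 had a neutrophil sum in the range of Mx, with 128 CPM of Mt1 and 72.3 CPM of Mt2. Single genes of that sum differed from Mx in this library. Mpo was at 254 CPM, against 54.7 and 120 CPM in Mx, and S100a8 at 3.74 CPM, against 68.2 and 28.1 CPM. The 9 macrophage genes summed to 16.1 to 35.4 CPM over all libraries, with 6 of them listed at 0 in Flt3ITD replicate 1. The 9 B and plasma cell genes summed to 49.3 and 319 CPM in NPMc_Flt3ITD, 55.1 and 281 CPM in Flt3ITD, against 95.4 and 416 CPM in Mx, higher in replicate 2 of each group. The 10 immediate early genes summed to 15165 and 7828 CPM in NPMc_Flt3ITD, 8436 and 4631 CPM in Flt3ITD, against 13663 and 5500 CPM in Mx, higher in replicate 1 of each group, whereas Mt1 and Mt2 in Flt3ITD were higher in replicate 2. The part of these differences in the metallothionein values was not tested.

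The genes with profiles most like the pair were found by the root mean square distance between log2(CPM + 1) values over the 6 libraries, each gene first centred on its own mean. For Mt1 the closest of 12656 other genes were Smim1 (distance 0.21), the Kell blood group gene Kel (0.36), the ankyrin gene Ank1 (0.40), the biliverdin reductase gene Blvrb (0.42) and Gm5544 (0.44). For Mt2 they were the claudin gene Cldn13 (0.30), the Rhesus blood group gene Rhd (0.52), Tspo2 (0.62), Ank1 (0.63) and Ermap (0.65). Blvrb, Cldn13, Rhd, Tspo2 and Ermap are also on the erythroid list, which was chosen with earlier results of these data known. Smim1 was at 2.28 and 0.780 CPM in NPMc_Flt3ITD, 17.99 and 27.7 CPM in Flt3ITD, against 2.06 and 2.07 CPM in Mx. Cldn13 was at 0.449 and 0.462 CPM in NPMc_Flt3ITD, 36.6 and 46.7 CPM in Flt3ITD, against 1.39 and 2.73 CPM in Mx. Mt1 was the fifteenth closest gene to Mt2, and Mt2 the eighty-seventh closest to Mt1, at a distance of 0.84. Mtf1, Slc30a1 and Slc39a10 ranked below the 5500 closest genes to either, with distances from 1.45 to 2.40. The likeness is a description of 6 libraries that share the same 3 groups.

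**Figure D4:**
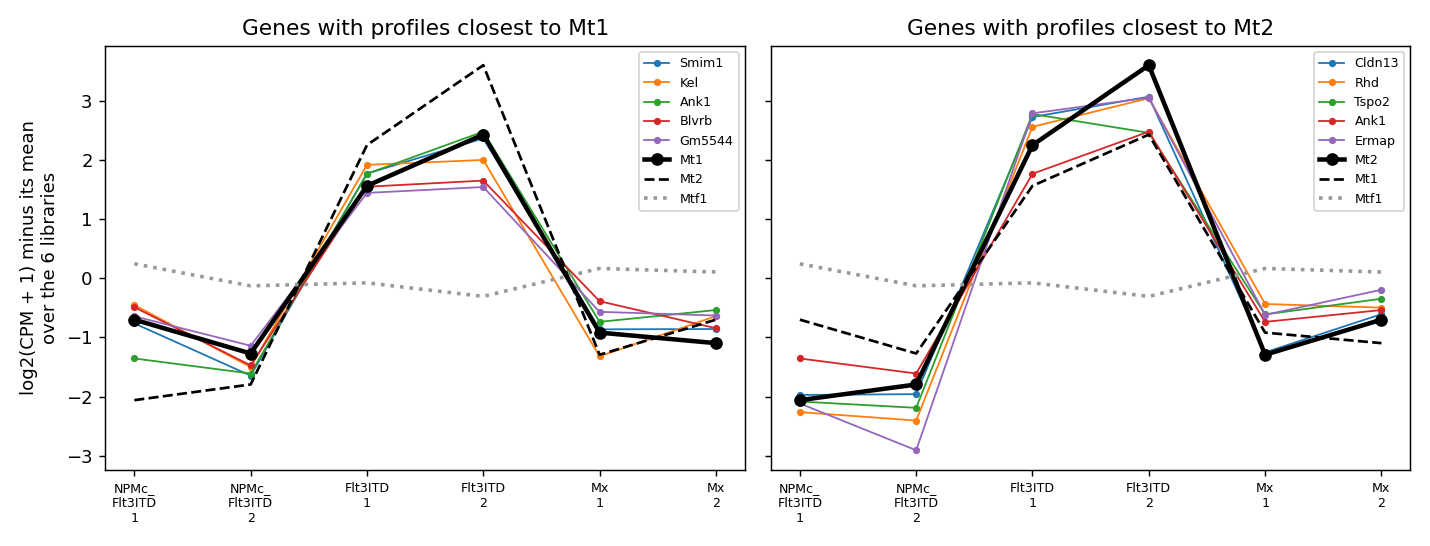
Values of log2(CPM + 1), each gene centred on its mean over the 6 libraries, for the 5 genes closest to Mt1 (left) and to Mt2 (right), with Mt1 and Mt2 in black and Mtf1 dotted in grey. Lines join libraries for reading only, and the numbers under the groups are replicates. The coloured genes peak in the 2 Flt3ITD libraries with the metallothioneins, while Mtf1 stays near 0 throughout.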

How the data were processed

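Poly(A) RNA of sorted LT-HSC was sequenced by a SMART-seq protocol, per the labels' protocols. The deposited signal values are normalised CPM from edgeR, per the file headers, for genes above 0 in at least 1 sample. Tools named in the submitters' processing notes are edgeR 3.20.7, HTSeq 0.6.1p1, TopHat2 2.1.0, SAMtools 0.1.18, Bowtie2 2.2.4 and CASAVA 1.8, with the mm9 build. Annotation and strand setting are not given in those notes. Promoter windows came from RefSeq tables of GRCm38.p6, with all 5 members matched by symbol, and no mm9 coordinates were used.

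All values were whole multiples of the smallest of their column (100% within 0.01 reads), so reads could be recovered. Reads are amplified without molecular identifiers, so floors cover counting error only. The main test was limma 3.58.1 with an intensity trend (R 4.3.3) on log2(CPM + 1), which understates changes of low genes. All 6 libraries entered 1 fit with group as the term, and p-values were Benjamini-Hochberg adjusted over the 12657 genes with at least 1 CPM in at least 2 libraries. All 5 members passed that filter. The threshold was an adjusted p under 0.05. The fit had 3 residual degrees of freedom, 8.67 after moderation. Alternatives were a pseudocount of 0.25, no filter, scaling to library totals, edgeR 4.0.16 and DESeq2 1.42.0 on recovered reads, a replicate block, each library left out and the 2 compared groups alone. The pipeline was tested on simulated data.

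The members, lists and tests were chosen with earlier results of these data known. Named pathway genes are those past the threshold, zinc transporters and sensor targets. Hmox1, Nr3c1 and the transporters given per library were chosen after their values were seen. Replicate numbers were read as pairing libraries, since libraries with the same number deviated from their group means together (correlation over genes 0.260 for Flt3ITD with Mx, 0.316 for NPMc_Flt3ITD with Mx and 0.341 for NPMc_Flt3ITD with Flt3ITD). With 2 pairs this is a reading from the values, and no label states it.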

Additional observations from a re-analysis of the deposited data

Results flagged for a closer look

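The effects against Mx were set against each other between the mutant groups by the test of NPMc_Flt3ITD against Flt3ITD, which Mt1, Slc40a1 and Tfrc passed. The log2 difference between these groups was -2.98 for Mt1, -3.83 for Slc40a1 and -1.24 for Tfrc (limma adjusted p = 0.00496, 0.00191 and 0.0241), with both NPMc_Flt3ITD libraries below both Flt3ITD libraries for each. For Mt1 this uses the Flt3ITD libraries in which the 5 genes were chosen, so its p is not independent of that choice, and it missed the threshold without NPMc_Flt3ITD replicate 2 (limma adjusted p = 0.0509). Tfrc missed it in 4 of 6 fits with a library left out (limma adjusted p up to 0.178). For Mt2 both Flt3ITD libraries lay above both Mx libraries and both NPMc_Flt3ITD libraries lay below them, with a log2 difference between the mutant groups of -4.85. That difference was not tested, since Mt2 was picked for its level in Flt3ITD against Mx. Groups of 2 are too small for a search for single outlying libraries.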

How the results depend on the processing

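Under the 13 alternatives Mt1 and Mt2 kept their direction in Flt3ITD against Mx and in NPMc_Flt3ITD against Flt3ITD, and Mt2 also in NPMc_Flt3ITD against Mx. Differences near 0 changed sign in some fits, all below the spread or the threshold: Mt1, Mtf1, Slc30a1 and Slc39a10 in NPMc_Flt3ITD against Mx, Slc39a10 in NPMc_Flt3ITD against Flt3ITD, and Slc30a1 in Flt3ITD against Mx. Mt1 in NPMc_Flt3ITD against Flt3ITD ranged from -3.414 to -2.548 with a library left out and was -2.981 with no filter, where it missed the threshold. Slc39a10 in Flt3ITD against Mx moved to -0.167 with library totals. In Flt3ITD against Mx, calls among all genes (576) and pathway genes (8) were 0 and 0 with no filter, 301 and 5 with edgeR, 328 and 5 with the compared groups alone, and 2341 and 16 with the replicate block. DESeq2 called 1489 genes. In NPMc_Flt3ITD against Mx they (148 and 1) were 27 and 0 with no filter, 550 and 5 with DESeq2 and 689 and 7 with the replicate block, and 2 pathway genes passed with library totals. In NPMc_Flt3ITD against Flt3ITD they (149 and 2) were 0 and 0 with no filter, 1017 and 7 with DESeq2 and 1513 and 14 with the replicate block, and edgeR called 92 genes. With a library left out, calls among all genes ranged from 0 to 314, 20 to 168 and 24 to 108 in these comparisons, and pathway calls from 0 to 5, 0 to 0 and 1 to 2. These fits had fewer samples, and the cause of the other differences was not tested. The block changed no call of the 5 members. With 2 libraries a group small differences were not detectable, and Slc30a1 had only 31 to 123 reads.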
